A study of Mus musculus with 23 samples.

Results

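Small nucleolar RNAs (snoRNAs) are short stable RNAs of the nucleus, and this account follows their genes in mouse aortic endothelial cells, the lining cells of the aorta. Members were all genes whose symbol on the array platform begins with Snor or Scarna. They were 108 of 24704 named genes, of which 65 were Snord genes, 34 Snora genes and 8 Scarna genes. The remaining member, Snorc, is a protein-coding gene of cartilage whose symbol fits by its letters alone, and it is given apart. The primary cells, of strain C57BL/6J per the labels, were grown to confluence and then kept for 48 h in medium in which 10% mouse plasma replaced the serum. The plasma came from mice without apolipoprotein E (ApoE-KO, 5 arrays), without apolipoprotein E and Stabilin-1 (ApoE-Stab1-KO, 6 arrays), without apolipoprotein E and Stabilin-2 (ApoE-Stab2-KO, 6 arrays) or without these deletions (Wildtype, 6 arrays). Knockout donors had eaten a Western diet for 8 weeks, and no diet, age or pooling of donors is given for Wildtype plasma, so genotype and diet cannot be told apart in comparisons with it. The genotypes are those of the plasma and not of the cells, which were the same in all groups.

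Box C/D snoRNAs (Snord) pair with ribosomal RNA and guide 2′-O-methylation by fibrillarin, the enzyme encoded by Fbl. Box H/ACA snoRNAs (Snora) guide conversion of uridine to pseudouridine by dyskerin, the enzyme encoded by Dkc1. Scarna genes encode relatives that act in Cajal bodies, mostly on the RNAs of the spliceosome. A few members, such as U14 (Snord14), U8 (Snord118), U22 (Snord22) and U17 (Snora73), are needed for cleavage or folding of the ribosomal RNA precursor, as known mainly from yeast and frog cells. In mammals most of these RNAs are cut out of introns of a host gene, often one that encodes a ribosomal protein or a non-coding RNA.

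In RefSeq (assembly GRCm38.p6, used for gene classes, lengths and neighbours), the Snord genes had a median length of 68 bases (45 to 221) and the Snora genes of 121 bases (61 to 205). Of the 107 small RNA genes, 103 lay within another gene, 80 of them in a protein-coding gene and 23 in a long non-coding RNA gene. The 4 without an enclosing gene were Scarna2, Snord118, Snord13 and Snord89. These hosts were 77 distinct genes, and 20 of them held 2 or more members (46 members in all), so many members share a primary transcript. The tables used here give no sequence for these RNAs, and the probe sequences are not given either. The assay labelled cRNA from total RNA, so a probe set may read the mature small RNA, an intron of the host precursor or both, and these cannot be told apart.

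Of the 107 small RNA genes, 90 had a mean level above that of the median gene (4.30 on the log2 scale of the array), namely 55 Snord, 30 Snora and 5 Scarna genes. Signals of different probe sets are not amounts of RNA, so the values that follow show the range of signal and do not rank the members by abundance. The highest mean signals were those of Snord100 (13.2), Snord32a (13.0) and Snord33 (12.3), of Snora21 (9.74), Snora52 (9.66) and Snora23 (9.27), and of Scarna2 (9.81), Scarna13 (8.86) and Scarna9 (8.38). The lowest were those of Snord64 (2.74), Snord90 (3.16) and Snord85 (3.29), of Snora36b (3.04), Snora20 (3.53) and Snora70 (3.67), and of Scarna10 (3.17), Scarna3a (3.32) and Scarna8 (3.98). All 10 endothelial markers lay above the median gene (8.27 to 12.8), against 0 of 3 hepatocyte and 0 of 2 blood cell markers, 2 of 5 for smooth muscle, 2 of 5 for fibroblasts and 1 of 5 for macrophages and leukocytes. The macrophage and leukocyte marker above the median gene had a mean of 11.2, within the endothelial range. In bulk RNA, fewer cells of a type and less RNA per cell cannot be told apart. The labels do not say whether replicates were separate cultures or plasma donors, so a p-value here reflects how much these samples scattered, and that scatter may be technical. The number of arrays limits the precision.

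Members varied more between arrays of 1 group than most genes did. The median residual standard deviation was 0.25 for Snord, 0.29 for Snora and 0.24 for Scarna genes, against 0.12 for all genes and 0.11 for the measured hosts. The standard errors of member differences were correspondingly wide, with a median of 0.14 in the comparison of ApoE-Stab1-KO with Wildtype plasma.

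The array mean over the 65 Snord genes was 7.92 ± 0.15 with ApoE-Stab1-KO plasma (7.73 to 8.17), 8.13 ± 0.20 with ApoE-Stab2-KO plasma (7.86 to 8.48), 8.08 ± 0.16 with ApoE-KO plasma (7.88 to 8.26) and 8.16 ± 0.07 with Wildtype plasma (8.08 to 8.27; SD over arrays). Of the 6 ApoE-Stab1-KO arrays, 5 lay below every Wildtype array and 1, replicate 4, lay within the Wildtype range. The mean over the 34 Snora genes was 6.75 ± 0.11 with ApoE-Stab1-KO, 6.76 ± 0.23 with ApoE-Stab2-KO, 6.89 ± 0.35 with ApoE-KO and 6.89 ± 0.12 with Wildtype plasma, and the groups overlapped. The ApoE-KO arrays spread most widely in this class, with 7.37 in replicate 3 and 6.44 in replicate 5. The mean over the 8 Scarna genes was 6.45 ± 0.08 with ApoE-Stab1-KO, 6.38 ± 0.18 with ApoE-Stab2-KO, 6.41 ± 0.16 with ApoE-KO and 6.51 ± 0.06 with Wildtype plasma, and these also overlapped.

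**Figure D1:**
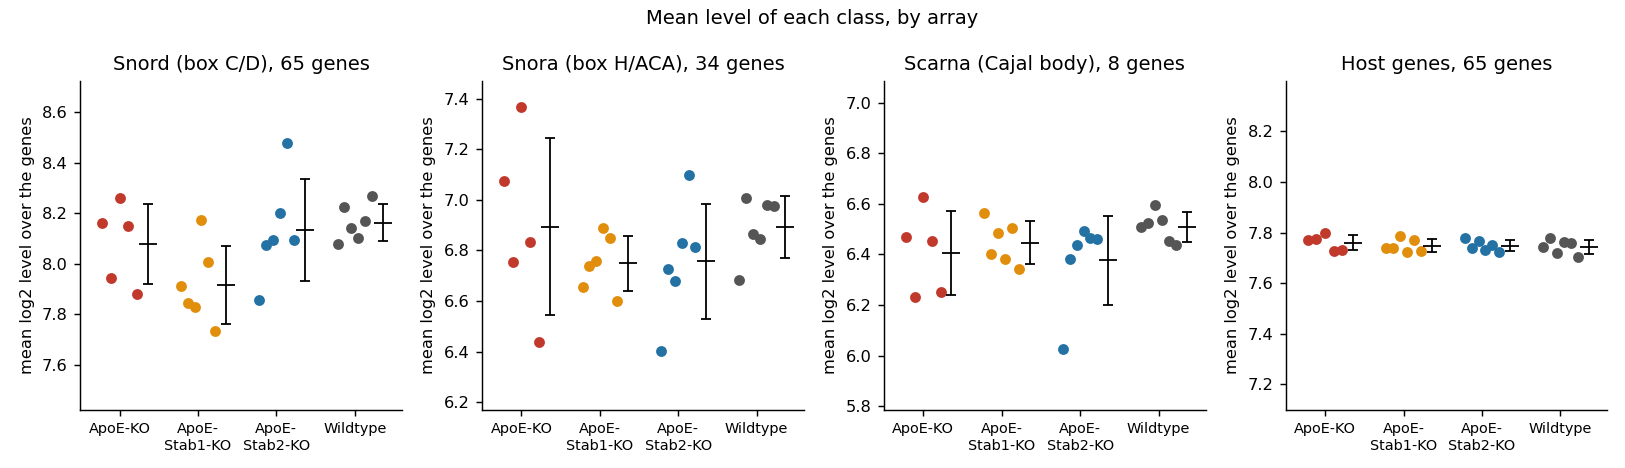
Mean log2 level of each class of small RNA gene and of the measured host genes, 1 point per array, by plasma group (n = 5 arrays for ApoE-KO and 6 for the others); the bar beside each group is its mean ± SD, and every panel spans the same height. The Snord panel shows ApoE-Stab1-KO arrays mostly below the Wildtype arrays (means 7.92 and 8.16), while the host genes stay within 7.70 to 7.80 in all groups.

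The comparison of ApoE-Stab1-KO with Wildtype plasma asked how these cells differ after plasma of mice without apolipoprotein E and Stabilin-1. Box C/D genes were mostly lower, with a median log2 difference of -0.28 over 65 genes and 55 of them below 0, where the median over all genes was 0.00 and 48.2% lay below 0. The test across all genes (limma, Benjamini-Hochberg adjusted p under 0.05) was passed by 5 members, 4 Snord and 1 Snora gene, and all 5 fell. They were Snord68, Snord47, Snord14e, Snord14a and Snora7a, which are 4.63% of the 108 members where 0.364% of all genes were called and 0.19% were called in the lower direction. At an unadjusted p under 0.05, 31 of 65 Snord genes (47.7%) were lower and 1 was higher, against 5.55% of all genes lower and 5.74% higher. The Snora class had a median of -0.12 (-0.20 without Wildtype replicate 1, -0.07 without ApoE-Stab1-KO replicate 1), with 5 of 34 genes lower and 0 higher at that level, and the Scarna class a median of 0.01, with 1 of 8 lower and 1 higher. Members move together within groups, as given below, so these counts are not counts of independent genes. When any 1 array was left out, the Snord median stayed between -0.33 and -0.23 and the count of Snord genes lower at the unadjusted level between 28 and 33.

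**Figure D2:**
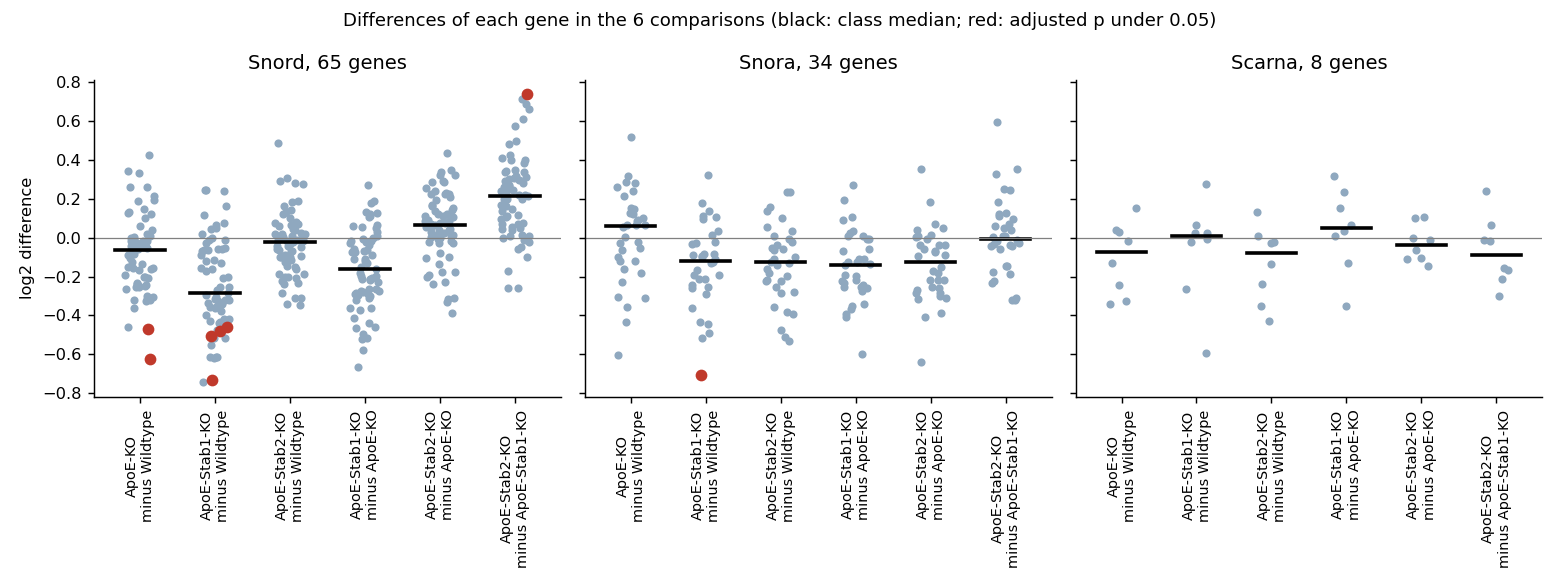
Log2 difference of each Snord, Snora and Scarna gene (1 point per gene) in the 6 comparisons, with the class median as a black line and genes with an adjusted p under 0.05 in red. The Snord medians are -0.28 for ApoE-Stab1-KO minus Wildtype and 0.21 for ApoE-Stab2-KO minus ApoE-Stab1-KO, and 5 members are red in the first and 1 in the second of these.

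Snord68, a box C/D gene within the ribosomal protein gene Rpl13, showed the lowest adjusted p of any member in this comparison. Its lowest, median and highest log2 levels were 8.60, 8.97 and 9.30 with ApoE-Stab1-KO plasma, against 9.29, 9.81 and 9.88 with Wildtype plasma. The highest ApoE-Stab1-KO array just reached the lowest Wildtype array, and the other arrays were separate. The gene fell by 0.73 on the log2 scale (SE 0.13, adjusted p = 0.00742), to 0.602 of its level with Wildtype plasma.

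Snord47 lies within Gas5, a non-coding RNA gene known to build up in cells that have stopped growing. It ranged over 10.76, 11.12 and 11.29 (lowest, median, highest) with ApoE-Stab1-KO plasma, against 11.35, 11.60 and 11.68 with Wildtype plasma. All 6 ApoE-Stab1-KO arrays lay below all 6 Wildtype arrays, and the fall was 0.48 (SE 0.09, adjusted p = 0.00898). Groups that do not overlap in the lower direction were found for 5 members here (Snord104, Snord47, Snora7a, Snord42a and Snord15a), against 0.385% of all genes.

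Both U14 genes fell. U14 is unusual among box C/D RNAs in that it serves cleavage of the small subunit ribosomal RNA precursor as well as methylation. Snord14e, within the heat shock protein gene Hspa8, had 10.01, 10.08 and 10.46 with ApoE-Stab1-KO plasma, against 10.38, 10.57 and 10.85 with Wildtype plasma, a difference of -0.46 ± 0.09 (SE, adjusted p = 0.0151). Only ApoE-Stab1-KO replicate 5 reached into the Wildtype range. Snord14a, within the ribosomal protein gene Rps13, had 6.93, 7.14 and 7.52 with ApoE-Stab1-KO plasma, against 7.50, 7.70 and 8.05 with Wildtype plasma, a difference of -0.51 ± 0.10 (SE, adjusted p = 0.0264). Here 2 ApoE-Stab1-KO arrays overlapped the lowest Wildtype array.

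Snora7a was the only box H/ACA gene called in any comparison; it lies within the ribosomal protein gene Rpl32, whose own transcript is not analysed here. Its levels were 5.72, 6.03 and 6.39 with ApoE-Stab1-KO plasma, against 6.48, 6.76 and 6.86 with Wildtype plasma. No array of one group reached the other, and the fall was 0.71 (SE 0.14, adjusted p = 0.0212).

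The Snord calls depended on the other groups for their estimate of the spread: with only the arrays of both groups in the fit the adjusted p was 0.0712 for Snord68 and Snord47, 0.0785 for Snord14e and 0.167 for Snord14a. Each of these was the highest of 31 alternative fits, the lowest being 0.0033 for Snord68, 0.0056 for Snord47, 0.00396 for Snord14e and 0.0112 for Snord14a. Snora7a ranged from 0.0112 to 0.0668, with the highest when the replicate number was a block. The number of members called was 3 without ApoE-Stab1-KO replicate 3 or Wildtype replicate 2, which ended the calls of Snora7a and Snord14a, and 8 without ApoE-Stab1-KO replicate 4 or 5. Snord14a also lost its call without ApoE-Stab1-KO replicate 5 or 6 or Wildtype replicate 4 or 6 (adjusted p = 0.0596 to 0.0706).

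**Figure D3:**
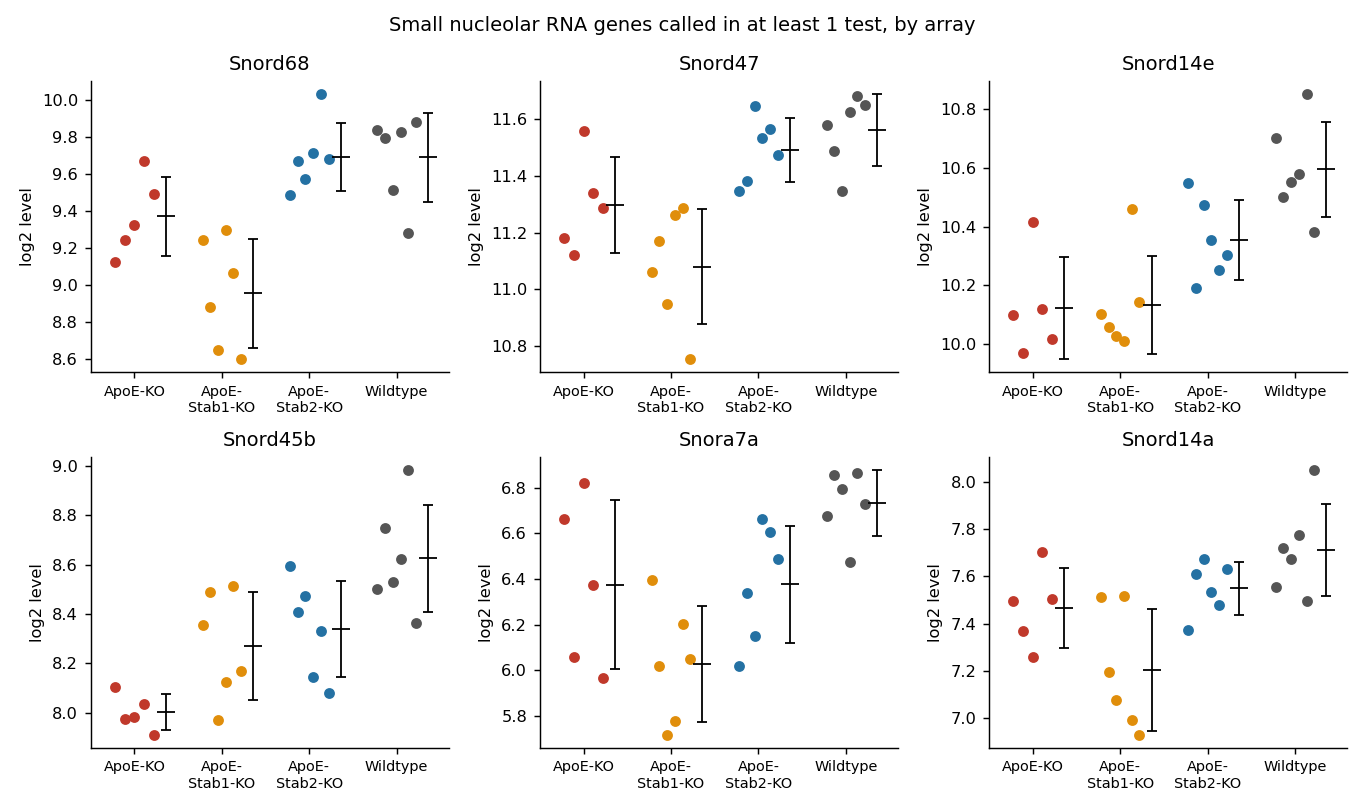
Log2 level of the 6 members called in at least 1 test, 1 point per array, by plasma group, with the mean ± SD beside each group. ApoE-Stab1-KO arrays are lowest for Snord68 (8.60 to 9.30), Snord47 and Snora7a, whereas for Snord45b the 5 ApoE-KO arrays (7.91 to 8.11) lie below all Wildtype arrays; each panel has its own axis.

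Several box C/D genes came close without passing. Snord15b, a copy of U15 within the ribosomal protein gene Rps3, differed by -0.43 ± 0.10 (SE, adjusted p = 0.0508), and its neighbour in the same host, Snord15a, by -0.62 ± 0.16 (adjusted p = 0.109). Snord55 differed by -0.44 ± 0.11 and Snord71 (within Ap1g1) by -0.42 ± 0.10, with adjusted p of 0.0716 and 0.0719. Snord42a, within Rpl23a, had the largest difference of any member, -0.74 ± 0.18 (adjusted p = 0.0731), with levels of 9.30, 10.26 and 10.87 with ApoE-Stab1-KO plasma, against 10.92, 10.96 and 11.13 with Wildtype plasma. Its ApoE-Stab1-KO arrays all lay below Wildtype but were widely spread. The other members of that host differed less or in the other direction, Snord42b by -0.31 ± 0.20 and Snord4a by 0.24 ± 0.10, neither of them called. The highest differences were those of Snora31 (0.32 ± 0.27), Scarna9 (0.28 ± 0.11) and Snord88c (0.24 ± 0.18), none of which passed.

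The 4 box C/D genes of Rpl13a are known from rodent cells in which they respond to lipid overload and oxidative stress. All 4 lay below 0 with ApoE-Stab1-KO plasma relative to Wildtype, at -0.05 ± 0.05 for Snord32a, -0.28 ± 0.11 for Snord33, -0.34 ± 0.10 for Snord34 and -0.42 ± 0.15 for Snord35a, and none passed (adjusted p = 0.174 to 0.752). Snord35a had 9.63, 9.81 and 10.31 with ApoE-Stab1-KO plasma, against 9.85, 10.43 and 10.57 with Wildtype plasma, and the groups overlapped. All 4 had the sign of most Snord genes, as 49 of the 55 above the median gene lay below 0 in this comparison. Snord33, Snord34 and Snord35a had differences within their errors of each other. Snord32a, whose signal is near the top of the scale, differed least, and a difference in size between the 4 genes was not tested.

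Among the members that act in ribosomal RNA processing, none but the U14 genes passed. Both U17 genes, Snora73a and Snora73b, which lie in the non-coding host Snhg3 and are known from hamster cells for a role in cholesterol trafficking, differed by -0.49 ± 0.17 and -0.44 ± 0.18 (adjusted p = 0.263 and 0.337). Snora73a had 7.58, 7.80 and 8.10 with ApoE-Stab1-KO plasma, against 8.01, 8.32 and 8.77 with Wildtype plasma, with partial overlap. Snord13 (U13), which in human cells guides acetylation of the small subunit ribosomal RNA, differed by -0.55 ± 0.23 and Snora74a (U19) by -0.43 ± 0.21. Snord118 (U8) and Snord22 (U22) differed by -0.01 ± 0.20 and -0.17 ± 0.33, and none of these 4 passed. The mean of Snord118, 4.23, lay below the median gene, so its probe set may miss a change.

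Plasma lacking only apolipoprotein E, set against Wildtype plasma, gave 2 members that passed, both of them box C/D genes and both lower, or 1.85% of members where 0.53% of all genes were called and 0.19% in the lower direction. Snord45b, within Rabggtb, the gene of a subunit of Rab geranylgeranyl transferase, had log2 levels of 8.11, 7.98, 7.98, 8.04 and 7.91 with ApoE-KO plasma, against 8.37, 8.58 and 8.98 (lowest, median, highest) with Wildtype plasma. The 5 ApoE-KO arrays lay close together and all below Wildtype. The gene fell by 0.62 (SE 0.11, adjusted p = 0.00618), to 0.649 of its Wildtype level, and this call passed in all 31 alternative fits (highest adjusted p 0.0206).

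Snord14e also fell with ApoE-KO plasma. Its levels were 10.10, 9.97, 10.42, 10.12 and 10.02, against 10.38, 10.57 and 10.85 with Wildtype plasma, a difference of -0.47 ± 0.09 (SE, adjusted p = 0.0145). ApoE-KO replicate 3 alone reached the lowest Wildtype array. The call was lost with only the arrays of both groups (adjusted p = 0.0513) and without ApoE-KO replicate 2 (0.0712), in a range of 0.00493 to 0.0712 over the alternatives. Snord14e was thus called in both comparisons with a difference of similar size, and these comparisons share the Wildtype arrays.

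Over the box C/D class the median difference with ApoE-KO plasma was -0.06, and 47 of 65 genes (72.3%) lay below 0 where 48.8% of all genes did. The median was -0.11 without ApoE-KO replicate 3. At the unadjusted level 15 of 65 Snord genes were lower and 3 higher, against 5.12% and 5.41% of all genes, but the lower count was 8 without ApoE-KO replicate 1 or replicate 2. Snord71 and Snord37 also had no overlap between the groups in the lower direction (0.891% of all genes did not), at -0.36 ± 0.11 and -0.46 ± 0.15 (adjusted p = 0.153 and 0.213). The Snora median was 0.06 and turned sign with the arrays used, from -0.09 without ApoE-KO replicate 3 to 0.09 without ApoE-KO replicate 5. Its extremes were Snora44 at -0.60 ± 0.24 and Snora34 at 0.52 ± 0.50. Snora23, within the importin gene Ipo7, differed by 0.29 ± 0.09, Snord1b by 0.42 ± 0.17 and Snord22 by 0.34 ± 0.35, and none of these passed. The Scarna median was -0.07.

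With ApoE-Stab2-KO relative to Wildtype plasma no member was called by limma, where 0.178% of all genes were, and 14 members were lower and 2 higher at an unadjusted p under 0.05 (4.22% and 4.27% of all genes). Box C/D genes centred on -0.02, and Snord68 and Snord47 differed by 0.00 ± 0.13 and -0.07 ± 0.09. Snord45b and Snord14e, called with other plasmas, differed by -0.29 ± 0.10 and -0.24 ± 0.09 here (adjusted p = 0.394 and 0.402). The nearest to a call was Snord4a, a box C/D gene whose mean of 3.79 lies below the median gene. It had 3.82, 4.0 and 4.32 with ApoE-Stab2-KO plasma, against 3.14, 3.63 and 3.73 with Wildtype plasma, and differed by 0.48 ± 0.10 (adjusted p = 0.0584). Its groups did not overlap, as was the case for 0.636% of all genes in the higher direction. It passed with a trended and robust prior (0.0337) and with array weights (0.0367), in a range of 0.0317 to 0.142 over the alternatives.

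Box H/ACA genes had a median of -0.13 with ApoE-Stab2-KO relative to Wildtype plasma, with 8 of 34 lower at an unadjusted p under 0.05, but that median was -0.03 without ApoE-Stab2-KO replicate 1 and -0.22 without ApoE-Stab2-KO replicate 5. Snora17, within the non-coding host Snhg7, had 8.28, 8.51 and 8.76 with ApoE-Stab2-KO plasma, against 8.82, 8.99 and 9.51 with Wildtype plasma, with no overlap, and differed by -0.51 ± 0.15 (adjusted p = 0.257). Snora73a likewise did not overlap (-0.39 ± 0.17), and these were 2 members where 0.514% of all genes had no overlap in the lower direction. Snora44 and Snora74a differed by -0.53 ± 0.23 and -0.48 ± 0.21, Scarna13, which lies in the non-coding host Snhg10, by -0.43 ± 0.14, and Snord92 and Snord95 by 0.31 ± 0.25 and 0.29 ± 0.18, all without a call. The 9 Snora genes in long non-coding hosts had a median of -0.38, and the 25 in protein-coding hosts of -0.06; this contrast was not tested.

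The plasmas of both Stabilin knockouts were then set against each other. Snord68 was the 1 member called, and it was higher with ApoE-Stab2-KO plasma, where 0.0486% of all genes were called and 0.0364% in the higher direction. Its levels were 9.49, 9.68 and 10.03 with ApoE-Stab2-KO plasma, against 8.60, 8.97 and 9.30 with ApoE-Stab1-KO plasma. All 6 ApoE-Stab2-KO arrays lay above all 6 ApoE-Stab1-KO arrays, as for 0.425% of all genes, and the rise was 0.74 ± 0.13 (SE, adjusted p = 0.0168), or 1.67-fold. The call was lost without ApoE-Stab1-KO replicate 3 (adjusted p = 0.0642) and with only the arrays of both groups (0.0835), in a range of 0.00849 to 0.0835. Without ApoE-Stab1-KO replicate 4 or ApoE-Stab2-KO replicate 1, 3 members were called, and without ApoE-Stab1-KO replicate 5, 2 members.

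Over box C/D genes the median difference in this comparison was 0.21, while the array means over the class overlapped between the groups. Of the 65 genes, 23 were higher and 0 lower at an unadjusted p under 0.05, against 5.2% and 5.78% of all genes. That count stayed between 20 and 27 when any 1 array was left out, but the median was 0.10 without ApoE-Stab2-KO replicate 5, whose Snord mean of 8.48 was the highest of all arrays. The ApoE-Stab1-KO arrays are the same as in the comparison with Wildtype plasma, so both results rest on them. Snord47 differed by 0.41 ± 0.09, without overlap, and Snord66, within the translation factor gene Eif4g1, by 0.48 ± 0.10, each with an adjusted p of 0.0681. Snord35a differed by 0.61 ± 0.15, Snord42a by 0.71 ± 0.18, Snord83b, within Rpl3, by 0.69 ± 0.17, and Snord70, within Nop58, by 0.66 ± 0.20, none of them called. Box H/ACA genes centred on -0.01, with Snora30 highest among them (0.59 ± 0.19) and Snora47, Snora17 and Snora41 the lowest of all members (-0.32 ± 0.11 for Snora47, -0.32 ± 0.15 for Snora17 and -0.31 ± 0.13 for Snora41).

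Against ApoE-KO plasma, no member was called with either Stabilin knockout plasma by limma. With ApoE-Stab1-KO plasma 0.00405% of all genes were called, and 19 members were lower and 2 higher at an unadjusted p under 0.05 (2.74% and 2.83% of all genes). The Snord median was -0.16, with 15 of 65 lower at that level. That count ranged from 8 to 23 when 1 array was left out, being 8 without replicate 4 of ApoE-KO or replicate 3 of ApoE-Stab1-KO, 9 without replicate 3 of ApoE-KO or replicate 6 of ApoE-Stab1-KO, and 23 without replicate 4 of ApoE-Stab1-KO. The median itself was -0.10 without ApoE-KO replicate 3. Snord70 differed by -0.66 ± 0.21, Snora34 by -0.60 ± 0.50, Snord42a by -0.58 ± 0.19, Snord83b by -0.52 ± 0.18 and Snord68 by -0.41 ± 0.13, with adjusted p of 0.81 to 0.969. The highest were Scarna3b (0.32 ± 0.13), Snora41 (0.27 ± 0.13) and Snord45b (0.27 ± 0.11).

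With ApoE-Stab2-KO relative to ApoE-KO plasma, 0.0243% of all genes were called, and 9 members were higher and 3 lower at an unadjusted p under 0.05 (3.94% and 4.42% of all genes), with Snord genes making up all 9. The class medians were 0.07 for Snord, -0.12 for Snora and -0.04 for Scarna genes, and each moved with single arrays. The Snord median was 0.02 without ApoE-Stab2-KO replicate 5 and 0.12 without ApoE-Stab2-KO replicate 1. The Snora median was -0.27 without ApoE-KO replicate 5 and -0.013 without ApoE-KO replicate 3, and the Scarna median was -0.09 without ApoE-Stab2-KO replicate 5 and 0.05 without ApoE-Stab2-KO replicate 1. The smallest adjusted p was that of Snord45b (0.34 ± 0.11, adjusted p = 0.359), followed by Snord66 (0.32 ± 0.11), Snord37 (0.44 ± 0.15), Snora23 (-0.25 ± 0.09) and Snord91a (0.29 ± 0.11). Snora30 and Snord95 differed by 0.35 ± 0.20 and 0.35 ± 0.19, and the lowest were Snora34 (-0.64 ± 0.50), Snora16a (-0.41 ± 0.31) and Snord38a (-0.39 ± 0.16). The interval around each of these is wide, so a similar level with both plasmas is not shown.

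Over all 4 plasma groups, 4 members passed the moderated F-test, or 3.70% of members where 0.546% of all genes did. They were Snord68 (adjusted p = 0.00816), Snord47 (0.0179), Snord14e (0.0184) and Snord45b (0.0258), and the next were Snord66 (0.0694) and Snora7a (0.0747). At an unadjusted p under 0.05 the F-test picked 34 of 108 members (31.5%), made up of 27 Snord, 5 Snora and 2 Scarna genes, where 11.9% of all genes were picked. The F-test calls of Snord68 and Snord47 held in all 30 alternative fits, that of Snord14e was lost without Wildtype replicate 1 (adjusted p = 0.0508) or 5 (0.0504), and that of Snord45b was lost without any 1 of 6 arrays (ApoE-KO replicates 2, 3 and 5 and Wildtype replicates 2, 4 and 5, adjusted p up to 0.0648). Without Wildtype replicate 5 the count of members was 2, without ApoE-Stab2-KO replicate 1 it was 7 and without ApoE-Stab1-KO replicate 4 it was 8. In all, 6 members were called in at least 1 test and 102 in none.

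The host transcripts were measured for 85 members, through 65 distinct host genes, and none of these hosts was called by limma in any of the 6 comparisons. The same held for 47 genes known as snoRNA hosts in general, many of them among the 65. Of all genes, 0.00405% to 0.53% were called per comparison, and lists of this size would give few or no calls at such shares. In the comparison of ApoE-Stab1-KO with Wildtype plasma the median difference was -0.19 for the 85 members and 0.00 for the hosts, of which 5 were higher and 1 lower at an unadjusted p under 0.05. Across the 85 pairs of member and host, Pearson's r between their differences was 0.08 here and lay between -0.14 and 0.08 in all comparisons, as a description across pairs that share arrays and in part hosts. Rpl13, host of Snord68, differed by 0.04 ± 0.10, and Gas5, host of Snord47, by 0.02 ± 0.05. Hspa8, host of Snord14e, differed by -0.14 ± 0.23, and Rps13, host of Snord14a, by -0.25 ± 0.22. With ApoE-KO relative to Wildtype plasma, Rabggtb differed by 0.08 ± 0.07 while Snord45b fell, and Snhg3 by 0.23 ± 0.06 (adjusted p = 0.0589) while its Snora73a stood at -0.43 ± 0.18. The errors of Hspa8 and Rps13 are wider than those of their snoRNAs, and the probe sets for Rpl13 and Rps13 averaged 4.67 and 4.78 with Wildtype plasma, little above the median gene. Of the 65 hosts, 8 had a mean not above the median gene. Among these were Tpt1, Rpl10, Rps2 and Rpl3, at 2.98, 2.93, 3.39 and 3.74 with Wildtype plasma. Probe sets with such low signals may miss a change, so the lack of calls does not show that all hosts were unchanged.

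**Figure D4:**
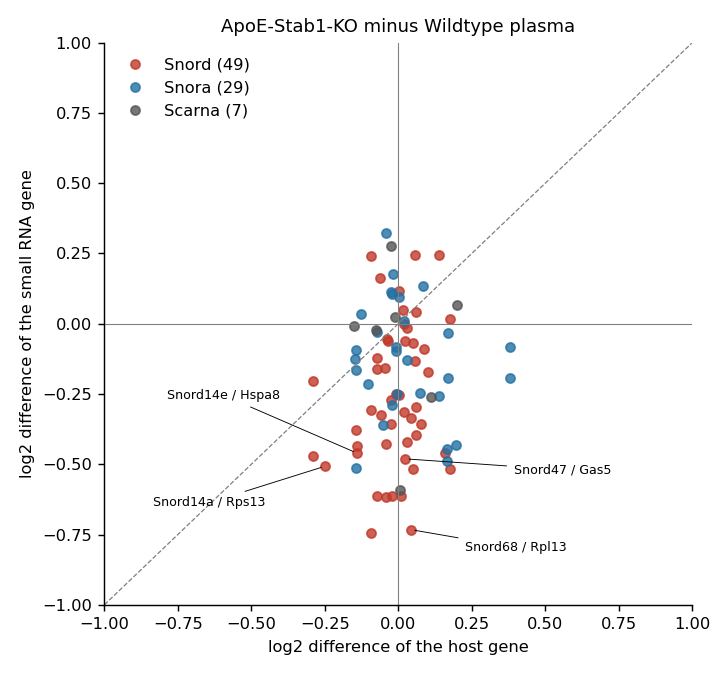
Log2 difference of each of 85 small RNA genes (vertical) against that of its measured host gene (horizontal), ApoE-Stab1-KO minus Wildtype plasma; the dashed line marks equal differences. Points lie in a vertical band around a host difference of 0 (median 0.00), mostly below 0 on the vertical axis (median -0.19).

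The proteins that carry these RNAs were measured for 7 of their core genes, and none was called in any comparison. A list this small would give few or no calls at the shares of all genes given above. Fbl had 6.44, 7.02 and 7.89 with ApoE-Stab1-KO plasma, against 7.27, 7.62 and 7.84 with Wildtype plasma, and differed by -0.55 ± 0.18 (adjusted p = 0.219), while it differed by 0.52 ± 0.18 with ApoE-Stab2-KO relative to ApoE-Stab1-KO plasma (adjusted p = 0.276). The ApoE-Stab1-KO arrays of Fbl were widely spread and overlapped the Wildtype arrays. The other box C/D proteins, Nop56 and Nop58, differed by 0.00 ± 0.08 and 0.05 ± 0.07 between ApoE-Stab1-KO and Wildtype plasma. Of the box H/ACA proteins, Dkc1 differed by 0.16 ± 0.09, Nop10 by 0.11 ± 0.05, Nhp2 by 0.04 ± 0.06 and Gar1 by -0.13 ± 0.09 in that comparison.

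Related genes showed few calls. None of 16 factors of snoRNA assembly, transport and Cajal bodies and none of 11 exosome, debranching and decay factors was called in any comparison. Among 27 factors of ribosome synthesis 1 was called, Myc, a transcription factor that drives ribosomal RNA synthesis. Myc fell by 0.28 with ApoE-Stab1-KO relative to Wildtype plasma (SE 0.06, adjusted p = 0.0452), where 0.364% of all genes were called. It did not pass the F-test over the 4 groups (adjusted p = 0.0921). Lists this small would give few or no calls at the shares of all genes. Of 6 genes with Rnu symbols, which encode U3, U5, U7 and U11 RNAs or their pseudogenes, 0 were called, and Rnu3a (U3, itself a box C/D snoRNA outside the symbols used here) differed by -0.24 ± 0.22 between ApoE-Stab1-KO and Wildtype plasma. Of 543 microRNA genes, another group of short RNAs, 1 was called in that comparison, and their median difference was 0.00, with 6.26% lower at an unadjusted p under 0.05. However, 409 of these 543 genes had a mean not above the median gene (median level 3.31), against 10 of 65 Snord genes. Most of them may therefore be unable to show a shift, and both groups cannot be set side by side. Endothelial markers were called as lower in 1 of 10 cases in that comparison and in 2 of 10 with ApoE-KO relative to Wildtype plasma. In each of these comparisons 0.19% of all genes were called lower. Over the 4 groups, Egfl7 and Cldn5 passed the F-test (adjusted p = 0.0046 and 0.0139). They were 2 of the 10 endothelial markers, where 0.546% of all genes passed. The mean log2 level of the 5 fibroblast markers was 4.20 to 4.40 over ApoE-Stab1-KO arrays, against 4.10 to 4.19 over Wildtype arrays, with no overlap. All 5 lay above 0 in that comparison, 2 of them at an unadjusted p under 0.05, none was called, and 2 of the 5 had a mean above the median gene. Over ApoE-KO arrays the fibroblast mean was 4.20 to 4.26, also above all Wildtype arrays. The part of these markers in the snoRNA results was not tested.

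Within groups the levels of members varied together from array to array. After group means were removed, the median correlation over 23 arrays was 0.36 among 55 Snord genes above the median gene, 0.43 among 30 Snora genes and 0.31 between both classes. The same members correlated with the 3 Rnu genes above the median gene at a median of 0.29 and with their own hosts at 0.07. ApoE-KO replicate 3 and ApoE-Stab2-KO replicate 5 had high levels and ApoE-KO replicate 5 and ApoE-Stab2-KO replicate 1 low levels of both Snord and Snora genes. The Snord means of the first pair were 8.26 and 8.48 and those of the second pair 7.88 and 7.86, and the Snora means 7.37 and 7.10 in the first pair and 6.44 and 6.40 in the second. None of these 4 arrays enters the means of ApoE-Stab1-KO and Wildtype plasma, but all 4 enter the shared estimate of the spread. The Snord means of the ApoE-Stab1-KO arrays also ranged from 7.73 to 8.17. The part of this shared variation in the class difference between ApoE-Stab1-KO and Wildtype plasma was not tested. Some members swung over a wide range of this kind, such as Snora34, within Kansl2, with levels of 5.0 to 8.83 among ApoE-Stab2-KO arrays, whereas Snord47 moved within 11.35 to 11.65 there.

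**Figure D5:**
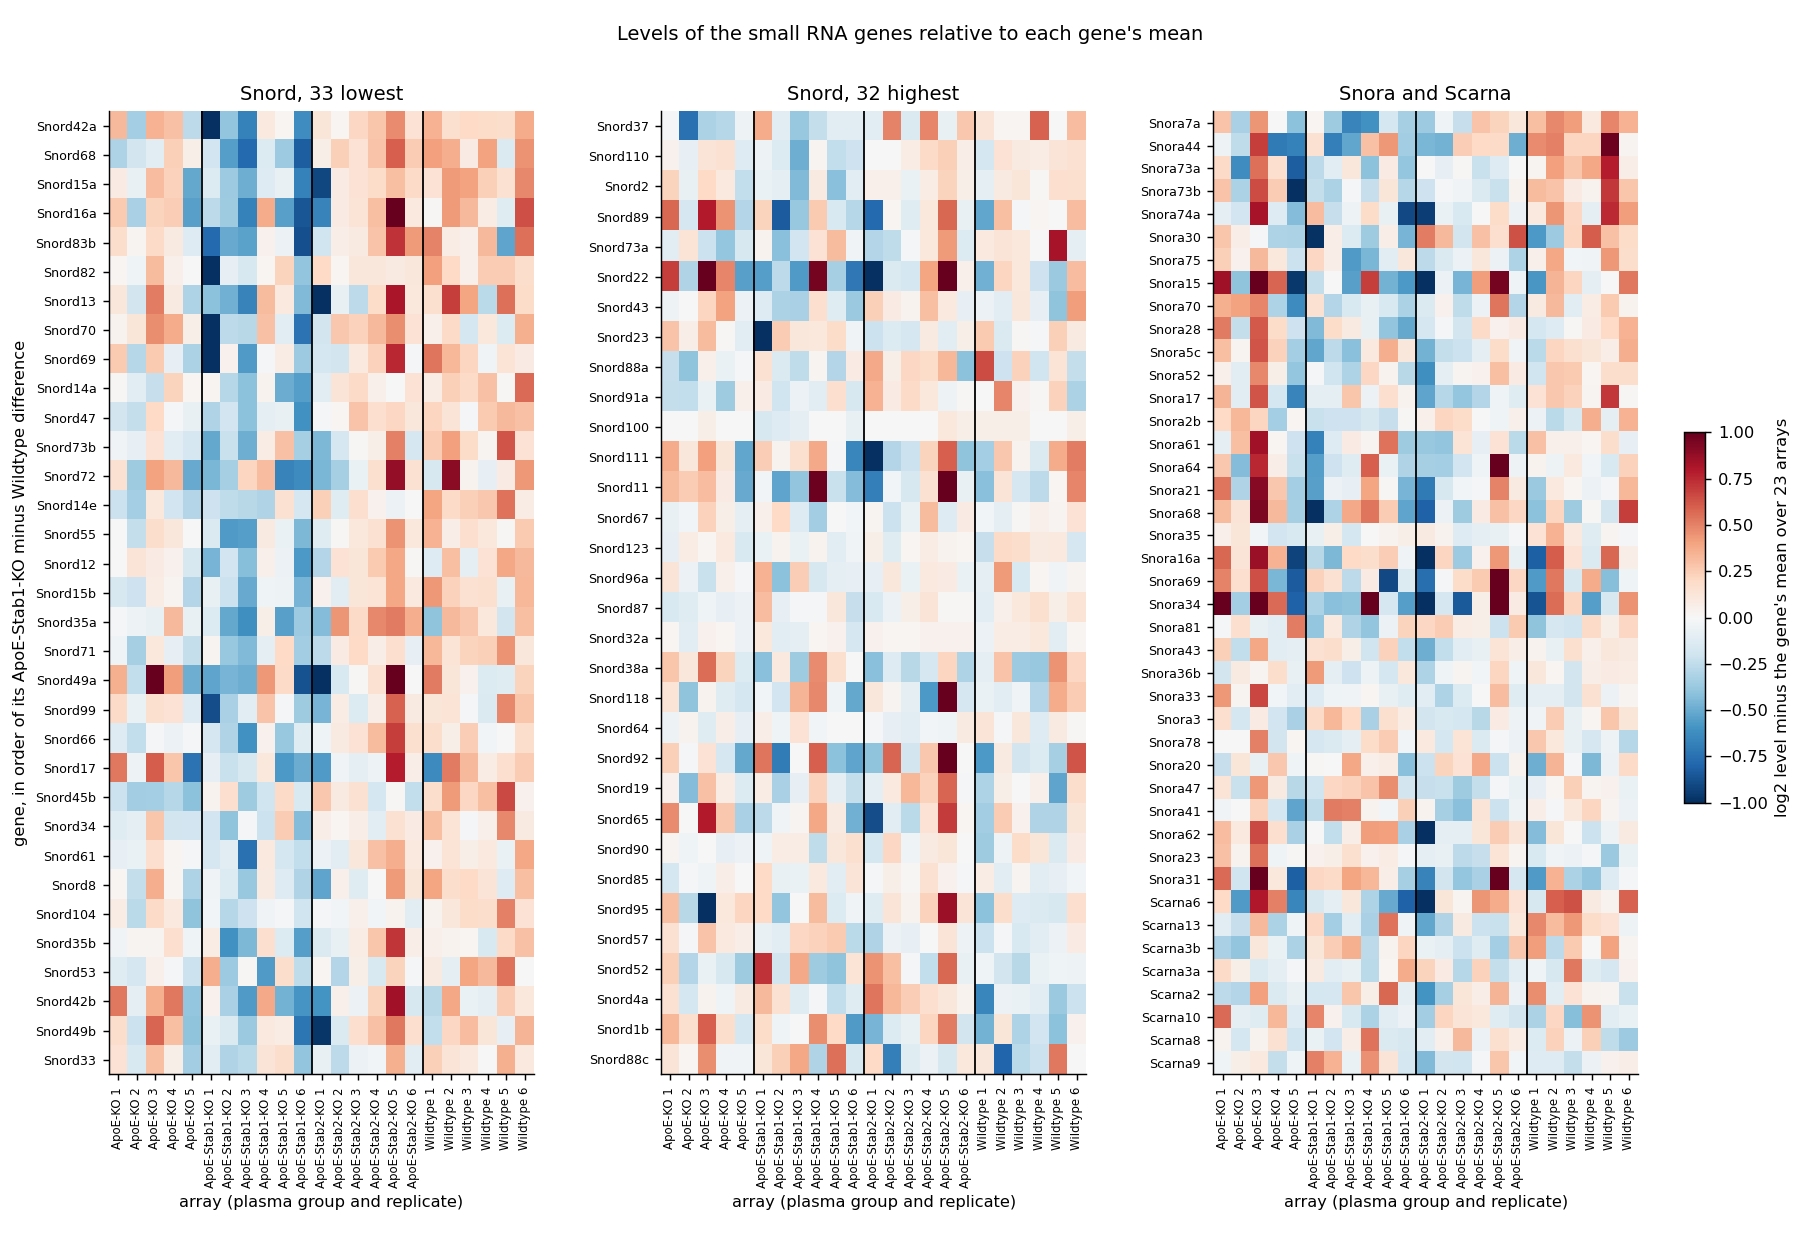
Log2 level of the 107 small RNA genes in each of 23 arrays minus the gene's mean over all arrays, with black lines between plasma groups and the genes of each class in order of their ApoE-Stab1-KO minus Wildtype difference. Blue is below and red above the gene's mean, and the scale ends at -1 and 1; whole columns such as ApoE-KO 3, ApoE-Stab2-KO 1 and ApoE-Stab2-KO 5 share 1 colour over many Snord and Snora genes.

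The difference of the box C/D class between ApoE-Stab1-KO and Wildtype plasma lay mainly among genes with a signal above that of the median gene. The 55 Snord genes above the median gene had a median of -0.32, with 49 below 0, and the 10 others a median of -0.01. Snord genes in protein-coding hosts (49 genes) had a median of -0.31 and those in long non-coding hosts (13 genes) of -0.17, without a test of the contrast. Of the 20 hosts with more than 1 member, Rps3, Snhg3, Ncl and Snhg12 had all their members below 0 (ranges -0.62 to -0.43, -0.49 to -0.44, -0.61 to -0.29 and -0.51 to -0.09), whereas Nop56 held 1 member at -0.25 and 1 at 0.12.

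Scarna genes gave no call. Scarna13 differed by -0.26 ± 0.14 with ApoE-Stab1-KO, -0.43 ± 0.14 with ApoE-Stab2-KO and -0.33 ± 0.15 with ApoE-KO plasma relative to Wildtype, and Scarna3b by -0.02 ± 0.12, -0.24 ± 0.12 and -0.34 ± 0.13. Scarna6 had the widest error, at -0.59 ± 0.27 with ApoE-Stab1-KO relative to Wildtype plasma. Snorc had a mean of 3.71, below the median gene, and differed by 0.04 ± 0.07 with ApoE-Stab1-KO, 0.06 ± 0.07 with ApoE-Stab2-KO and 0.13 ± 0.08 with ApoE-KO plasma relative to Wildtype.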

How the data were processed

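RNA of 23 samples was measured on 1 array each. The deposited values are log2 signals per probe set, made by the authors with RMA (background correction, quantile normalization and summarization), per the submitters' processing notes; a difference is therefore relative to the other genes. No genome build for the array's annotation is stated (not given in the sources used here). Of 25428 probe sets, 24705 carried 1 gene symbol and 723 none, and the brightest probe set per symbol was kept, which left 24704 genes. The values of ApoE-KO replicate 1 had other decimals than those of the other arrays: 4.21% of them lay on the binary grid that held all values elsewhere, while the sorted values of this array differed by at most 0.00191 from those of ApoE-KO replicate 2.

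Groups were compared with limma 3.58.1 in R 4.3.3 (lmFit over all 4 groups, eBayes without trend or robust settings, 19 residual and 4.19 prior degrees of freedom), with Benjamini-Hochberg adjustment over all 24704 genes in each of the 6 comparisons. A gene was called at an adjusted p under 0.05. The fit was also run on simulated data with known changes, built from the gene means and residual spreads of these arrays. Each gene was drawn independently there, so that run does not cover genes that vary together, as the members did. Tables and figures were made with Python 3.11.15, pandas 2.3.3 and matplotlib 3.10.9. Each enclosing gene was found by position in RefSeq tables that give no strand, and the hosts of 18 members are not analysed here.

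The members and lists were chosen with earlier results of these data known. Members named were those called, the 3 per class with the smallest F-test p and with the highest and lowest means, and per comparison the 3 highest, the 3 lowest and the 5 with the smallest p, besides those of shared hosts and of known roles in ribosomal RNA processing, which were chosen after their values were seen. The lists held core proteins, assembly factors, ribosome synthesis factors, known hosts, decay factors, Rnu genes, microRNA genes and cell type markers, and their members are given as counts with few examples. Same-numbered arrays did not deviate together: of 33 pairs of arrays with 1 replicate number, 1 had a correlation of deviations over 0.1 (-0.096 to 0.11, median 0.01), so the numbers were not taken to pair the arrays. The alternatives were a repeated quantile normalization, median centring, genes above the median gene, a trended and robust prior, the replicate number as a block, array weights, all probe sets, only the arrays compared, and each array left out. Class medians and counts of Snord genes at an unadjusted p under 0.05 were added to these after seeing the data.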

Additional observations from a re-analysis of the deposited data

Results flagged for a closer look

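Among 36 groups of arrays tested for a sample far from the others (the 6 called genes and the means of the Snord, Snora and Scarna classes in each plasma group), 2 stood out, where chance picks about 5% of such groups. Snord14e was at 10.46 in ApoE-Stab1-KO replicate 5, while the other arrays of that group lay between 10.01 and 10.14. The mean of the Scarna genes was 6.03 in ApoE-Stab2-KO replicate 1, while the other arrays of that group lay between 6.38 and 6.49. Snord68 was picked because its responses to the Stabilin knockout plasmas differed: the direct difference, ApoE-Stab2-KO minus ApoE-Stab1-KO, was 0.74 on the log2 scale (limma, adjusted p = 0.0168), with the levels of all 6 ApoE-Stab2-KO arrays above those of all 6 ApoE-Stab1-KO arrays.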

How the results depend on the processing

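Of 273 values of named members under other settings, 262 kept their direction and their side of the threshold, 7 lost and 4 gained a call, and of 805 values with 1 array left out 778 kept both, 18 lost and 9 gained a call; 0 changed sign while called. A repeated quantile normalization and median centring changed no call of a member. They could hardly do so, because the deposited values were already quantile normalized. The fit of all probe sets was also almost the same fit, with 24705 probe sets for 24704 genes. These 3 settings are counted among the other settings and the alternative fits, but they say little about stability. With only genes above the median gene, which leaves fewer genes to adjust for, 9 members were called in ApoE-Stab1-KO minus Wildtype (5 in the fit as reported) and 7 in the F-test (4), and the Scarna medians were -0.24 in ApoE-KO minus Wildtype and 0.15 in ApoE-Stab1-KO minus ApoE-KO. With only the arrays of the groups compared, which leaves fewer samples for the spread, the counts were 1 in ApoE-KO minus Wildtype, 2 in ApoE-Stab1-KO minus Wildtype and 0 in ApoE-Stab2-KO minus ApoE-Stab1-KO. Of the 5 members reported as called in ApoE-Stab1-KO minus Wildtype, Snora7a alone kept its call with only these arrays. The other of the 2 was not among those 5. In ApoE-Stab2-KO minus Wildtype 1 member (Snord4a) was called with a trended and robust prior and with array weights, and the cause was not tested. With the replicate block, 4 members were called in ApoE-Stab1-KO minus Wildtype, as Snora7a lost its call (adjusted p = 0.0668), and no other call of a member was lost. With 1 array left out, the counts of members called ranged from 1 (without ApoE-KO replicate 2) to 2 in ApoE-KO minus Wildtype, 3 to 8 in ApoE-Stab1-KO minus Wildtype, 0 to 1 in ApoE-Stab2-KO minus Wildtype (1 without ApoE-Stab1-KO replicate 1 or 5), 0 to 3 in ApoE-Stab2-KO minus ApoE-Stab1-KO and 2 to 8 in the F-test. The Snora median in ApoE-Stab1-KO minus ApoE-KO ranged from -0.26 (without ApoE-KO replicate 5) to -0.011 (without ApoE-KO replicate 3). With 1 array left out, the Scarna median ranged from -0.03 to 0.04 in ApoE-Stab1-KO minus Wildtype, from -0.12 to -0.04 in ApoE-KO minus Wildtype, from -0.14 to -0.05 in ApoE-Stab2-KO minus Wildtype, from 0.02 to 0.11 in ApoE-Stab1-KO minus ApoE-KO and from -0.12 to -0.05 in ApoE-Stab2-KO minus ApoE-Stab1-KO. The Snora median ranged from -0.07 to 0.08 in ApoE-Stab2-KO minus ApoE-Stab1-KO (without ApoE-Stab2-KO replicate 5 and replicate 1), and the Snord median from -0.11 to 0.006 in ApoE-Stab2-KO minus Wildtype (without the same arrays). One host was called in ApoE-KO minus Wildtype with genes above the median gene, with array weights and without ApoE-KO replicate 3, ApoE-Stab1-KO replicate 3 or ApoE-Stab2-KO replicate 6, 1 in the F-test with the replicate block, and 1 core protein in ApoE-Stab1-KO minus Wildtype without ApoE-Stab1-KO replicate 1. Of the 107 small RNA genes, 17 had a mean signal not above that of the median gene.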
